A study of Mus musculus with 6 samples.

Results

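Genes of mitosis and the spindle were followed in single cells of mouse pancreatic tumors treated with an interleukin fusion protein. The set holds 38 genes of the 34187 gene features in the matrices. They are a written list of known mitotic genes, drawn up with earlier results of these data known though without a cut on measured values, and all 38 were found by symbol. They comprise 3 genes of chromosome structure, 6 cyclins and partners of the cyclin-dependent kinase, 5 mitotic kinases and checkpoint genes, 3 genes of the anaphase promoting complex and its regulators, 3 of the chromosomal passenger complex, 6 of the centromere and kinetochore, 8 spindle motors and spindle proteins, and 4 cytokinesis genes.

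Tumors were grown under the skin of C57BL/6 mice, male and female per the methods, from 6694c2vTRP1 cells, a transplanted pancreatic ductal adenocarcinoma line. The methods give an age for mice of another pancreatic tumor experiment and none for these mice. Each group received 2 intraperitoneal injections from day 8 and was killed on day 14. The PBS group received vehicle, the mono-IL10 group received 26 ug per mouse of monomeric interleukin-10, and the IL10/2-Trikine group received 30.6 ug per mouse of a protein that joins monomeric interleukin-10 to a part that also recruits the interleukin-2 receptor beta chain. CD45-positive cells were isolated on beads, tagged per mouse with 5 hashtag antibodies, pooled by treatment and run as 1 library per group on a 5′ droplet kit. Treatment and library therefore cannot be told apart, and the mice of a group are separate animals that shared a library. The model is 1 transplanted line rather than a tumor that arose in the pancreas.

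In a dividing cell, cyclin A and cyclin B with Cdk1 drive entry into mitosis, condensin and topoisomerase II compact and untangle the chromosomes, and kinetochores on the centromeres attach them to the spindle built by motors such as Kif11. Aurora, Polo-like and Bub kinases check that attachment before the anaphase promoting complex with Cdc20 and Ube2c marks cyclin B for destruction, and Anln, Ect2, Racgap1 and Kif23 then split the cell. Most of these transcripts are abundant only from late S phase to mitosis. Many of their promoters carry a CHR element, bound by the MuvB complexes, and CCAAT boxes, bound by NF-Y.

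Promoters of 6 members are shown because the results below turn on these genes: Mki67, Top2a, Cdk1 and Ube2c are members read out in every population, and Cenpa and Kif2c stood apart from the other members in macrophages. The sequences are from RefSeq on build GRCm38.p6, not the GRCm39 build of the count files, and each is the 150 bases before the annotated start, 5′ to 3′. Capitals mark the CHR letters TTTGAA, or TTCAAA on the other strand, and the CCAAT box letters CCAAT, or ATTGG on the other strand.
Mki67, chr7:135716380-135716529, minus strand: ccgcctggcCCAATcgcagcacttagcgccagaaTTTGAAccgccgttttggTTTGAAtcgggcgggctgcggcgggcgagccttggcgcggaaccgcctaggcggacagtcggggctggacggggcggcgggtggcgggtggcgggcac
Top2a, chr11:99024190-99024339, minus strand: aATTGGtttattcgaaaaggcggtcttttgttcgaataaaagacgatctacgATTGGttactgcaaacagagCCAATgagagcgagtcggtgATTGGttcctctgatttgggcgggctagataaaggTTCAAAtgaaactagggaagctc
Cdk1, chr10:69352913-69353062, minus strand: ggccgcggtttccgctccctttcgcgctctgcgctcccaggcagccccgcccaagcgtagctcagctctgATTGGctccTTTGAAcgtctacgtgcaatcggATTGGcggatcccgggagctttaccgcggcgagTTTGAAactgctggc
Ube2c, chr2:164769779-164769928, plus strand: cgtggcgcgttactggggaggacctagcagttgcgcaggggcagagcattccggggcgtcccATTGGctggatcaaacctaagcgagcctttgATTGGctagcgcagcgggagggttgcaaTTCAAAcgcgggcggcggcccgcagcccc
Cenpa, chr5:30666736-30666885, plus strand: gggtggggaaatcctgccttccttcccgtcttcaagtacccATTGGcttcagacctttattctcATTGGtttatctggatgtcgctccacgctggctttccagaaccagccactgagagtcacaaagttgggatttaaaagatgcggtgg
Kif2c, chr4:117178773-117178922, minus strand: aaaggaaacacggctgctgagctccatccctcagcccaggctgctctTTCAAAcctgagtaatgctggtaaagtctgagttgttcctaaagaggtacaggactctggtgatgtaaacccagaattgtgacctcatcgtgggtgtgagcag

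Promoter sequence was found for 34 of the 38 members. Within the 250 bases before the start, CHR letters were present in 12 of 34 members (35.3%) and in 16.3% of 27025 genes. CCAAT box letters were present in 26 of 34 members (76.5%) and in 34.5% of all genes, and both in 11 of 34 members (32.4%) against 5.73%. In 1 member, Cenpw, the matches overlapped. Mki67, Top2a, Cdk1 and Ube2c held both motifs, Cenpa held CCAAT boxes without CHR letters, and Kif2c held CHR letters without a CCAAT box. A match describes the letters in this window and does not show a bound site.

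The libraries held 44412 barcodes for PBS, 30528 for mono-IL10 and 55504 for IL10/2-Trikine, with median totals of 5198 to 8078 UMIs per barcode. The IL10/2-Trikine library was the shallowest. The deposited annotation gives mice for lymphocytes alone, so the mouse of every cell was called again from the hashtags. The new calls equalled the deposited ones for 97.1% to 98.6% of annotated cells, and none was given another mouse. Between 408 and 700 barcodes were shared by a pair of libraries. In the deposited annotation, 507 cells with a mouse lay in the NK and Cycling_NK clusters and 876 in the other clusters, which the annotation names as T cell clusters and which are called T cells here. That name did not go with the markers in all of them: in the IL10/2-Trikine mice the summed NK markers of these cells had a median of 26.8 per 10,000 UMIs (21.2 to 33.6) and the T cell markers one of 19.8 (18.4 to 25.5), and 59 of 94 Cycling_T cells of this group had more NK than T cell marker UMIs. This marker score has a limit. Of the 7 NK markers, Gzma, Klrd1 and Klrb1c are also on the paper's list of targets of STAT5, through which it describes interleukin-2 as signaling. In annotated NK cells the NK marker sum had a median of 27.2 under PBS and 64.1 under IL10/2-Trikine. The part of treatment in the score was not tested. Macrophage or monocyte-like cells (19468) and tumor epithelial-like cells (21252) were defined by clustering without cell cycle genes. The clusters were named from these same class markers, so their levels describe the classes and do not check the names. All 10 macrophage markers were detected in the macrophage class at a summed level of 131 to 159 per 10,000 UMIs, and all 7 epithelial markers in the tumor class at 40.8 to 60.5. Cells that carry tumor epithelial markers were thus left after the CD45 isolation.

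On average, IL10/2-Trikine mice had more mitotic transcript in lymphocytes and less in macrophages than PBS mice. In cells with at least 2000 genes the macrophage difference was not kept, and with library depth matched as well the groups overlapped, as given below. In that matched setting 32 of 37 member estimates stayed below 0. The summed level of the 38 members, in UMIs per 10,000 UMIs after each cell was thinned to 1500 UMIs, is given without a test because it is a score over the chosen members. In NK cells it was 4.67, 2.78, 6, 4.52 and 7.62 in the PBS mice, 4.49, 3.86, 6.55 and 3.81 in mono-IL10 mice 1, 2, 4 and 5, and 10.1, 11.6, 19.3, 11.2 and 7.08 in the IL10/2-Trikine mice. In all, 4 of 5 IL10/2-Trikine mice lay above every PBS mouse and all 5 above every mono-IL10 mouse, and mono-IL10 mouse 3 was left out because it had 9 NK cells. The group means were 5.12 ± 1.81 (SD, n = 5), 4.68 ± 1.28 (n = 4) and 11.8 ± 4.5 (n = 5), a ratio of 2.32 for IL10/2-Trikine over PBS and 2.53 over mono-IL10.

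In T cells the summed level was 13.2, 32.5, 21.7, 21.7 and 19.01 in the PBS mice, 22.7, 28.4, 12.3, 15.1 and 23.2 in the mono-IL10 mice and 40.5, 43.3, 49.5, 53.7 and 28 in the IL10/2-Trikine mice. All IL10/2-Trikine mice but mouse 5 were above every PBS mouse, and these values include the NK-like cells of the Cycling_T cluster. The means were 21.6 ± 7.0, 20.3 ± 6.5 and 43.0 ± 9.9 (SD, n = 5 each), a ratio of 1.99 over PBS and 2.12 over mono-IL10. In cells thinned to 3000 UMIs the log2 ratio over PBS was 0.29 in place of 0.99. At that depth IL10/2-Trikine mice 3 and 4, the highest in the level above, had no T cell share. The ratios at the different depths thus need not rest on the same mice.

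In macrophage or monocyte-like cells the summed level was 9.36, 6.86, 8.03, 7.11 and 7.78 in the PBS mice, 4.58, 3.93, 4.45, 4.18 and 3.45 in the mono-IL10 mice and 6.58, 5.77, 3.4, 5.92 and 3.496 in the IL10/2-Trikine mice. Both treated groups lay wholly below the PBS mice and overlapped each other. In cells with at least 2000 genes, IL10/2-Trikine mice overlapped PBS mice. The means were 7.83 ± 0.98, 4.12 ± 0.45 and 5.03 ± 1.48 (SD, n = 5 each), ratios of 0.53 for mono-IL10 over PBS and 0.64 for IL10/2-Trikine over PBS. In tumor epithelial-like cells the levels were close, at 24.5, 25.7, 27.8, 27.6 and 25.6 in the PBS mice, 26.9, 24.7, 27.2, 23.2 and 24.6 in the mono-IL10 mice and 21.6, 26.1, 27.4, 22.7 and 20.2 in the IL10/2-Trikine mice. The 3 groups overlapped there, with means of 26.2 ± 1.4, 25.3 ± 1.7 and 23.6 ± 3.1. Neutrophil-like cells, which do not divide once mature, had a pooled summed level of 7.39, 7.23 and 4.22 in the 3 groups. The PBS and mono-IL10 values were close to the mean of PBS macrophages and above those of mono-IL10 macrophages and of PBS and mono-IL10 NK cells. The IL10/2-Trikine value, over 30 cells, lay below both of these NK means. Cks2 gave 68.5% of the member UMIs in neutrophil-like cells.

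**Figure D1:**
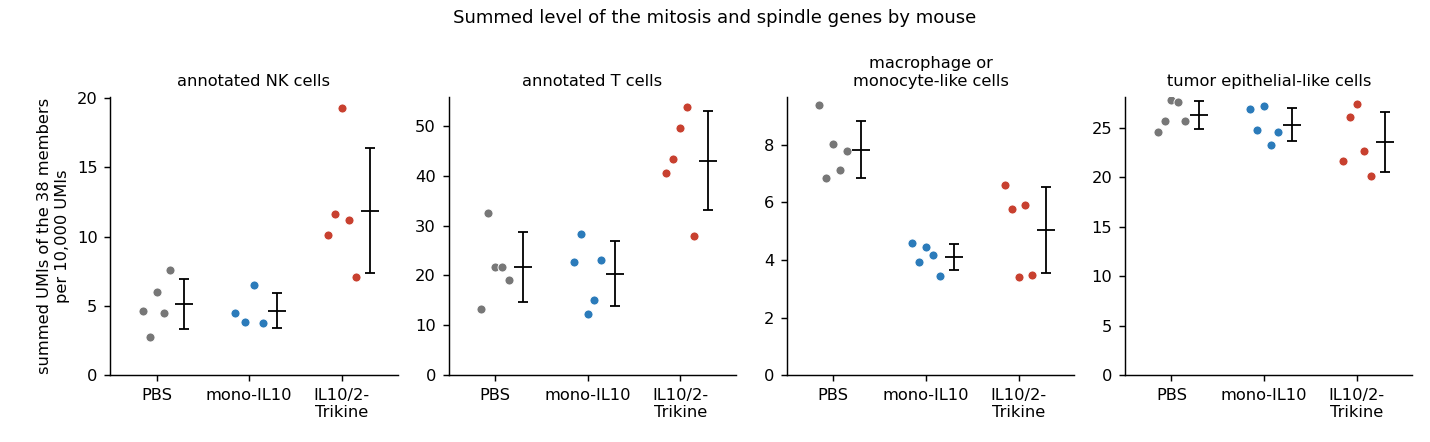
Summed level of the 38 members in UMIs per 10,000 UMIs in cells thinned to 1500 UMIs (y axis, its own scale in each panel), by treatment (x axis), in NK cells, T cells, macrophage or monocyte-like cells and tumor epithelial-like cells. Points are mice and bars the mean ± SD. IL10/2-Trikine mice average 11.8 against 5.12 in PBS in NK cells, and 5.03 against 7.83 in macrophages.

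The summed level can move through the share of cells in the cycle or through the level within such cells. The share of cells with UMIs of at least 3 different members was 2.65% ± 4.34 (PBS), 3.94% ± 3.35 (mono-IL10) and 16.0% ± 6.5 (IL10/2-Trikine) in NK cells. In T cells it was 22.7% ± 7.3, 23.6% ± 5.1 and 57.2% ± 5.7. In macrophages it was 9.51% ± 1.5, 3.14% ± 0.75 and 4.65% ± 2.63, and in tumor cells 41.1% ± 2.9, 40.1% ± 3.9 and 37.3% ± 4.4. The macrophage share was 11.8, 8.06, 9.92, 8.26 and 9.53% in the PBS mice, 4.08, 2.98, 3.64, 2.88 and 2.12% in the mono-IL10 mice and 8.05, 5.84, 2.24, 5.4 and 1.75% in the IL10/2-Trikine mice. IL10/2-Trikine mouse 1, at 8.05%, lay a little below the lowest PBS mouse, at 8.06%. Inside cells with 3 or more members, the macrophage level was 52.9 ± 2.9, 47.5 ± 2.8 and 56.0 ± 7.5 in the 3 groups, and the T cell level 77.6 ± 16.3, 69.3 ± 22.1 and 69.9 ± 13, and the groups overlapped in this level. In all other macrophages the level was 3.05 ± 0.09, 2.70 ± 0.21 and 2.57 ± 0.14.

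**Figure D2:**
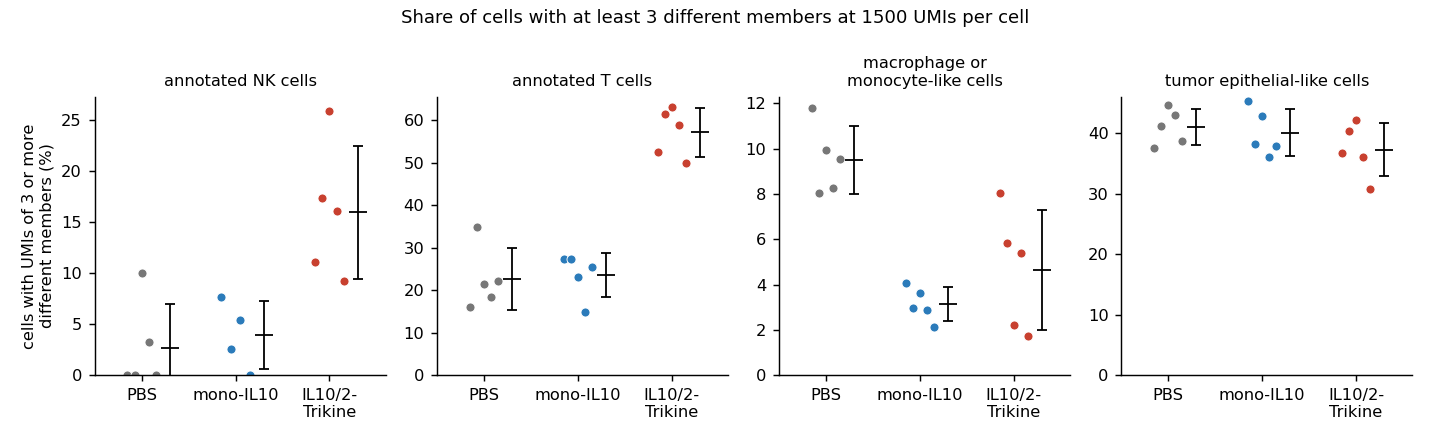
Percent of cells with UMIs of at least 3 different members (y axis, its own scale in each panel) by treatment (x axis) in the same 4 populations, cells thinned to 1500 UMIs. Points are mice and bars the mean ± SD. T cells average 57.2% under IL10/2-Trikine against 22.7% under PBS, and macrophages 9.51% under PBS against 3.14% under mono-IL10 and 4.65% under IL10/2-Trikine.

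Mki67, the proliferation antigen that coats mitotic chromosomes, and Top2a, topoisomerase II alpha, were each tested as a share of cells with a UMI, by exact two-sided permutation over mice, and p was adjusted over 24 tests (Benjamini-Hochberg). Here 6 tests passed 0.05, and 0.00794 is the smallest p that 5 against 5 mice allow. The Top2a share in T cells was 19.9% ± 5.3 under PBS, 19.4% ± 3.7 under mono-IL10 and 40.9% ± 6.4 under IL10/2-Trikine, and IL10/2-Trikine was above both others (exact permutation, adjusted p = 0.0317 for each, n = 5). In macrophages the Top2a share was 7.26% ± 1.08, 2.66% ± 0.47 and 4.36% ± 1.49, and the Mki67 share 6.73% ± 0.91, 3.12% ± 0.85 and 3.49% ± 1.49, with both treated groups below PBS for both genes (exact permutation, adjusted p = 0.0317 for each of the 4). Neutrophil-like cells, at median depths of 2910, 2877 and 2236 UMIs against 5002, 6163 and 2807 in macrophages, had an Mki67 share of 2.16%, 4.46% and 3.33% and a Top2a share of 0.866%, 0.939% and 0% in the 3 groups after the same thinning. The IL10/2-Trikine neutrophil-like values rest on 30 cells. The Mki67 shares of treated macrophages lay close to or below the neutrophil-like level, and their Top2a shares were above it. In macrophages with at least 3 other members, pooled Mki67 was at 538, 154 and 308 UMIs per 10,000 macrophages in the 3 groups. In the other macrophages it was at 327, 227 and 169. The part of background in these shares was not tested. IL10/2-Trikine and mono-IL10 macrophages did not differ past the threshold (exact permutation, adjusted p = 0.109 for Top2a and 0.812 for Mki67). The T cell Mki67 share, 14.0% ± 3.8, 13.1% ± 8.8 and 31.8% ± 11.3, missed the threshold (exact permutation, adjusted p = 0.0544 against PBS and 0.0635 against mono-IL10), as did the NK shares (exact permutation, adjusted p = 0.0866 against PBS for Mki67 and 0.114 for Top2a). The 6 calls became 12 without thinning and 0 when cells were thinned to 3000 UMIs. At 3000 UMIs IL10/2-Trikine mice 3 and 4 had no T cell share, so the smallest p possible was larger there. The T cell Top2a shares of mice 1, 2 and 5 were then 76.2, 60.7 and 73.3%, above the highest PBS mouse at 56.25%. The 0 calls thus do not show that the T cell shares drew together. With the NK-like cells of the Cycling_T cluster counted as NK cells, a test added after seeing the data, the T cell Top2a share averaged 18.4% ± 5.1, 14.6% ± 3.9 and 26.4% ± 6.9 over the same groups, and both of its calls were lost (exact permutation, adjusted p = 0.161 against PBS and 0.0635 against mono-IL10). The NK Top2a share was then 9.31% ± 7.72, 3.42% ± 3.06 and 24.6% ± 5.6. IL10/2-Trikine passed the threshold against mono-IL10 (exact permutation, adjusted p = 0.0381) but not against PBS (exact permutation, adjusted p = 0.0635). The moved cells come from a cycling cluster, so this call is a description.

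Most members were lower in the macrophages of treated mice, with 37 of 38 estimates below 0 under IL10/2-Trikine and 36 of 38 under mono-IL10, each against PBS. In cells with at least 2000 genes in place of 1000 the first count was 18 of 38, with 20 above 0 and a member median of 0.03, while the second stayed at 36. With library medians matched as well, the first count was 32 of 37, with a member median of -0.36. Raw UMIs were summed per mouse and fitted across 12259 genes (edgeR quasi-likelihood test, Benjamini-Hochberg adjustment over all genes tested). All 38 members passed the filter on low counts in macrophages. Against PBS, 21 members fell and 1 rose under IL10/2-Trikine, while 18.1% of all genes tested were called, 8.88% as lower and 9.17% as higher. The member median was -0.67 on the log2 scale against 0.00 over all genes. Under mono-IL10, 36 fell and 1 rose, while 26.4% of all genes were called, 13.4% as higher and 13% as lower, and the member median was -1.21. IL10/2-Trikine against mono-IL10 gave 8 higher and 1 lower, while 11.8% of all genes were called, 4.91% as higher and 6.89% as lower, with a member median of 0.57. The PBS mice serve in both comparisons with PBS, so these do not repeat each other independently. With each mouse left out in turn the 22 calls of IL10/2-Trikine against PBS ranged from 8, without IL10/2-Trikine mouse 5, to 26, without PBS mouse 4, and the 37 calls of mono-IL10 against PBS stayed at 37. The 9 calls of IL10/2-Trikine against mono-IL10 ranged from 1, without IL10/2-Trikine mouse 1, to 17, without mono-IL10 mouse 1.

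Among the chromosome genes, Top2a was at 143, 88.9, 115, 91.9 and 115 CPM in the PBS mice, 56.7, 36.6, 36.3, 28.5 and 26.3 in the mono-IL10 mice and 73.4, 67.7, 28.3, 55.4 and 28.8 in the IL10/2-Trikine mice, where CPM are UMI counts scaled to the TMM library size. Every treated mouse lay below every PBS mouse. It fell under IL10/2-Trikine (log2 fold change -1.01, SE 0.22, adjusted p = 0.00365) and under mono-IL10 (log2 fold change -1.56, SE 0.21, adjusted p = 2.20e-05; edgeR quasi-likelihood test, Benjamini-Hochberg adjustment over all genes tested). Mki67 was at 90.6, 69.4, 67.5, 59.5 and 76.5 CPM in the PBS mice, 40.5, 31.5, 35.8, 28.9 and 22.4 in the mono-IL10 mice and 49.9, 44.8, 14.1, 51.5 and 18.9 in the IL10/2-Trikine mice. It also separated both treated groups from PBS, and fell in both (edgeR, log2 fold change -0.90, SE 0.21, adjusted p = 0.00565 under IL10/2-Trikine and log2 fold change -1.17, SE 0.19, adjusted p = 1.52e-04 under mono-IL10). Smc4, a core subunit of condensin, was at 98.9, 76.2, 91.5, 72.8 and 86.8 CPM in the PBS mice, 60.99, 47.2, 45.9, 48.3 and 43.6 in the mono-IL10 mice and 65.4, 54.8, 55.7, 58.7 and 44.4 in the IL10/2-Trikine mice. Its groups did not overlap with PBS either (edgeR, log2 fold change -0.59, SE 0.11, adjusted p = 0.001 and log2 fold change -0.78, SE 0.10, adjusted p = 1.55e-05). All 3 genes of chromosome structure fell in both comparisons with PBS, where 8.88% (IL10/2-Trikine) and 13% (mono-IL10) of all genes fell.

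Of the 6 cyclins and kinase partners, 3 fell under IL10/2-Trikine and 6 under mono-IL10, where 8.88% and 13% of all genes fell. Cks2, a small subunit that binds Cdk1, was at 73.4, 64.5, 57.9, 63.8 and 62.7 CPM in the PBS mice, 41.9, 30.8, 39.97, 41.2 and 33.9 in the mono-IL10 mice and 47.04, 38.2, 22.1, 40.96 and 39.1 in the IL10/2-Trikine mice. Each treated mouse was below each PBS mouse, and Cks2 had the smallest p of all members under IL10/2-Trikine (edgeR, log2 fold change -0.70, SE 0.12, adjusted p = 3.66e-04). Cdk1, the mitotic kinase, was at 27.2, 22.7, 27.8, 23.02 and 22.9 CPM in the PBS mice, 13.4, 10.3, 13.3, 8.63 and 9.06 in the mono-IL10 mice and 20.1, 21.4, 7.07, 12.7 and 9.04 in the IL10/2-Trikine mice. Its PBS mice, at 22.7 and more, were all above the treated mice (edgeR, log2 fold change -0.61, SE 0.19, adjusted p = 0.0269 under IL10/2-Trikine and log2 fold change -1.14, SE 0.17, adjusted p = 5.10e-05 under mono-IL10). Ccnb1, cyclin B1, was at 14.6, 10.4, 8.26, 6.14 and 8.83 CPM in the PBS mice, 6.48, 3.59, 4.52, 1.97 and 4.45 in the mono-IL10 mice and 11.2, 9.56, 0.884, 7.75 and 2.47 in the IL10/2-Trikine mice. IL10/2-Trikine mice 1, 2 and 4 lay among the PBS mice and mice 3 and 5 below them, and the difference missed the threshold (edgeR, log2 fold change -0.32, SE 0.33, adjusted p = 0.549) while mono-IL10 passed it (edgeR, log2 fold change -1.16, SE 0.30, adjusted p = 0.00786).

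Birc5, the survivin subunit of the chromosomal passenger complex, was at 44.1, 35.8, 38.9, 25.1 and 34.7 CPM in the PBS mice, 23.5, 15.6, 15.3, 11.2 and 9.41 in the mono-IL10 mice and 30.5, 22.4, 7.07, 20.5 and 13.6 in the IL10/2-Trikine mice in macrophages. IL10/2-Trikine mouse 1, at 30.5, lay within the PBS range (edgeR, log2 fold change -0.73, SE 0.24, adjusted p = 0.0409), and mono-IL10 mice lay below it (edgeR, log2 fold change -1.20, SE 0.22, adjusted p = 4.01e-04). Ube2c, the ubiquitin-conjugating enzyme of the anaphase promoting complex, was at 48.3, 39.6, 43.9, 27.6 and 42.2 CPM in the PBS mice, 25.4, 15.4, 20.9, 8.33 and 13.9 in the mono-IL10 mice and 28.4, 32.7, 15.03, 28.8 and 12.7 in the IL10/2-Trikine mice. PBS mouse 4, at 27.6, overlapped 3 IL10/2-Trikine mice, and the difference missed the threshold (edgeR, log2 fold change -0.68, SE 0.24, adjusted p = 0.0578), unlike that of mono-IL10 (edgeR, log2 fold change -1.22, SE 0.22, adjusted p = 3.88e-04). Kif23, a kinesin of the central spindle, was at 24.7, 16.5, 19.6, 13.8 and 19.2 CPM in the PBS mice, 6.48, 6.07, 6.07, 3.33 and 4.62 in the mono-IL10 mice and 12.1, 9.56, 6.19, 7.75 and 9.04 in the IL10/2-Trikine mice. It fell in both groups without overlap and was lower under mono-IL10 than under IL10/2-Trikine (edgeR, log2 fold change 0.85, SE 0.22, adjusted p = 0.0146 for IL10/2-Trikine against mono-IL10).

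By role, the IL10/2-Trikine fall took in 5 of 8 spindle genes, led by Kif11 (log2 fold change -0.84, SE 0.21, adjusted p = 0.0101; edgeR), the motor that pushes spindle poles apart, and 3 of 4 cytokinesis genes, with Kif23 as its leading member. It took in 3 of 6 centromere and kinetochore genes, led by Ndc80 (edgeR, log2 fold change -0.79, SE 0.24, adjusted p = 0.0272), and 2 of 3 passenger complex genes. Of 5 kinases and checkpoint genes 1 fell, the checkpoint kinase Bub1 (edgeR, log2 fold change -0.93, SE 0.23, adjusted p = 0.00836), and 1 of 3 genes around the anaphase promoting complex, Cdca3 (edgeR, log2 fold change -0.81, SE 0.27, adjusted p = 0.0432). Under mono-IL10 all 5 kinases and checkpoint genes, all 4 cytokinesis genes, 7 of 8 spindle genes and 5 of 6 centromere and kinetochore genes fell. Over all genes 8.88% fell under IL10/2-Trikine and 13% under mono-IL10. The 21 members that fell under IL10/2-Trikine spanned -1.01 to -0.47, and the 16 with no call spanned -0.80 to -0.12, all negative. The 36 that fell under mono-IL10 spanned -1.78 to -0.78. The 8 members higher under IL10/2-Trikine than under mono-IL10 included Bub1b (0.62), Ect2 (0.92) and Anln (1.06), log2 differences with edgeR adjusted p = 0.0121, 0.016 and 0.0253.

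**Figure D3:**
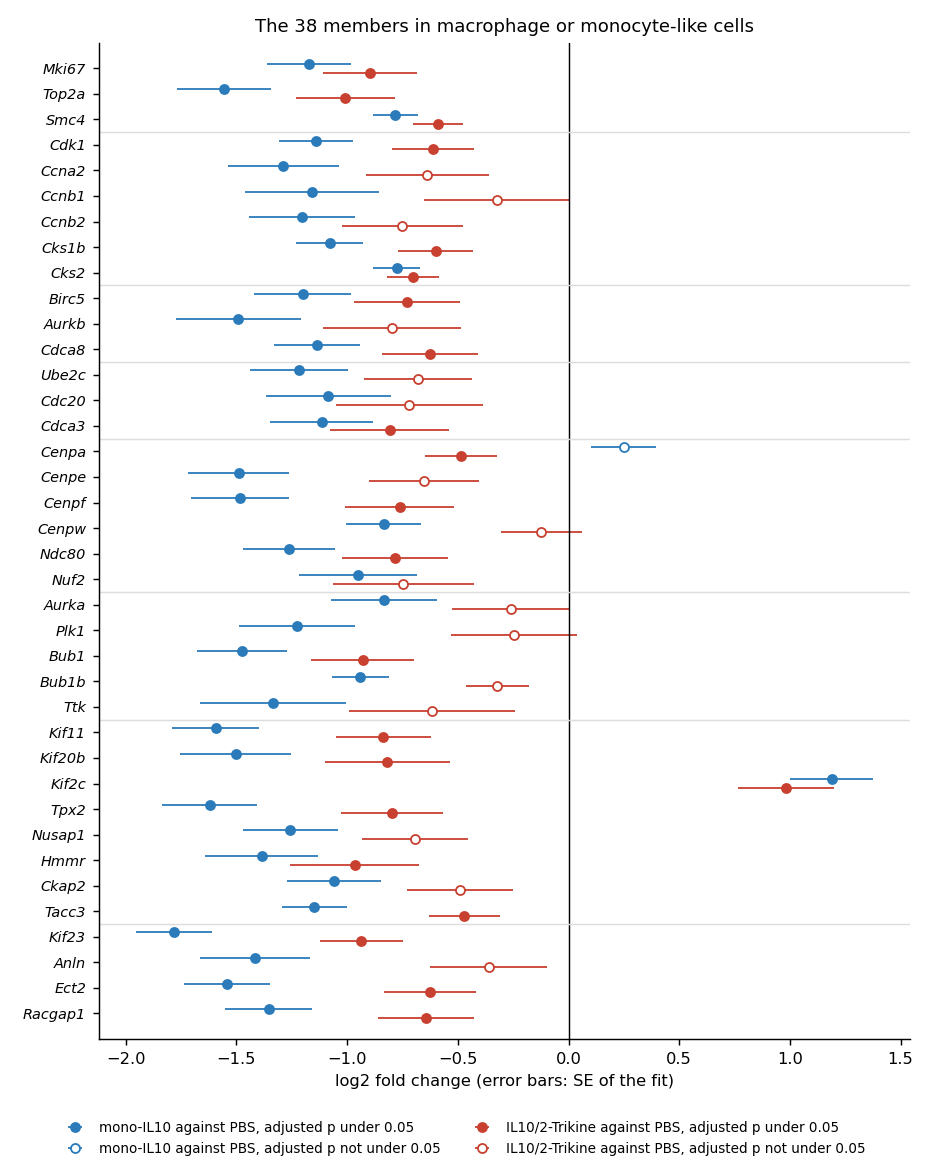
Log2 fold change ± SE (x axis) of each of the 38 members (rows, grouped by role) in macrophage or monocyte-like cells, for both treated groups against PBS. Filled points have an edgeR adjusted p under 0.05. Kif2c lies right of 0 in both comparisons, at 0.98 and 1.19, and 21 and 36 other members lie left of 0 with a call.

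Kif2c and Cenpa moved otherwise than the rest, and both are named here after their values were seen. Kif2c, a kinesin that takes microtubules apart at the kinetochore, was at 7.21, 5.51, 8.26, 5.37 and 7.17 CPM in the PBS mice, 16.6, 16.97, 12.5, 13.3 and 16.4 in the mono-IL10 mice and 14.99, 17.4, 15.03, 11.1 and 4.52 in the IL10/2-Trikine mice. It was higher in all 5 mono-IL10 mice than in any PBS mouse and in 4 of 5 IL10/2-Trikine mice (edgeR, log2 fold change 1.19, SE 0.19, adjusted p = 1.06e-04 and log2 fold change 0.98, SE 0.22, adjusted p = 0.00363). With library medians matched and at least 2000 genes per cell both calls of Kif2c were lost (edgeR, log2 fold change 0.73, adjusted p = 0.0518 under mono-IL10 and 0.64, adjusted p = 0.235 under IL10/2-Trikine). Cenpa, the histone H3 variant of centromeres, was at 87.3, 123, 85.5, 84.8 and 98.2 CPM in the PBS mice, 100.04, 113, 124, 154 and 80.2 in the mono-IL10 mice and 81.8, 65.9, 40.7, 65.3 and 74.4 in the IL10/2-Trikine mice. It was lower in each IL10/2-Trikine mouse than in each PBS mouse (edgeR, log2 fold change -0.49, SE 0.16, adjusted p = 0.0439), and it was the only member without a call under mono-IL10 (edgeR, log2 fold change 0.25, SE 0.15, adjusted p = 0.232). The IL10/2-Trikine call of Cenpa was lost in cells thinned to 1500 UMIs (edgeR, log2 fold change -0.48, adjusted p = 0.0683) and with library medians matched at 1000 genes (edgeR, -0.46, adjusted p = 0.0554), where its size hardly moved. It was also lost, at a smaller size, with at least 2000 genes per cell (edgeR, log2 fold change -0.31, adjusted p = 0.318) and with library medians matched at 2000 genes (edgeR, -0.38, adjusted p = 0.132).

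These UMIs also lay in different cells. In macrophages, 51.8% of all member UMIs came from cells with at least 3 other members, but 13.4% of those of Cenpa and 23.6% of those of Kif2c, against 75.6% for Top2a and 89.6% for Hmmr, a spindle protein. The next values count UMIs found in one kind of cell but divide by all macrophages, so they also move with the share of such cells. In cells with 3 other members, Kif2c was at 49.8 ± 18.3, 17.8 ± 8.5 and 29.3 ± 24.9 UMIs per 10,000 macrophages in PBS, mono-IL10 and IL10/2-Trikine mice, and the groups overlapped. In the other cells, Kif2c was at 20.2 ± 17.5, 230.5 ± 71.3 and 154 ± 65. The rise of Kif2c thus lay in macrophages with few other mitotic transcripts, in which mono-IL10 mice (178 to 353) did not overlap PBS mice (4.80 to 47.7), while IL10/2-Trikine mice (37.5 to 186) overlapped them. In cells with 3 others, Top2a was at 946 ± 185, 225 ± 88 and 424 ± 213 UMIs per 10,000 macrophages, which is not its level within such cells. The part of reads from overlapping or similar genes in Kif2c and Cenpa counts was not tested.

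**Figure D4:**
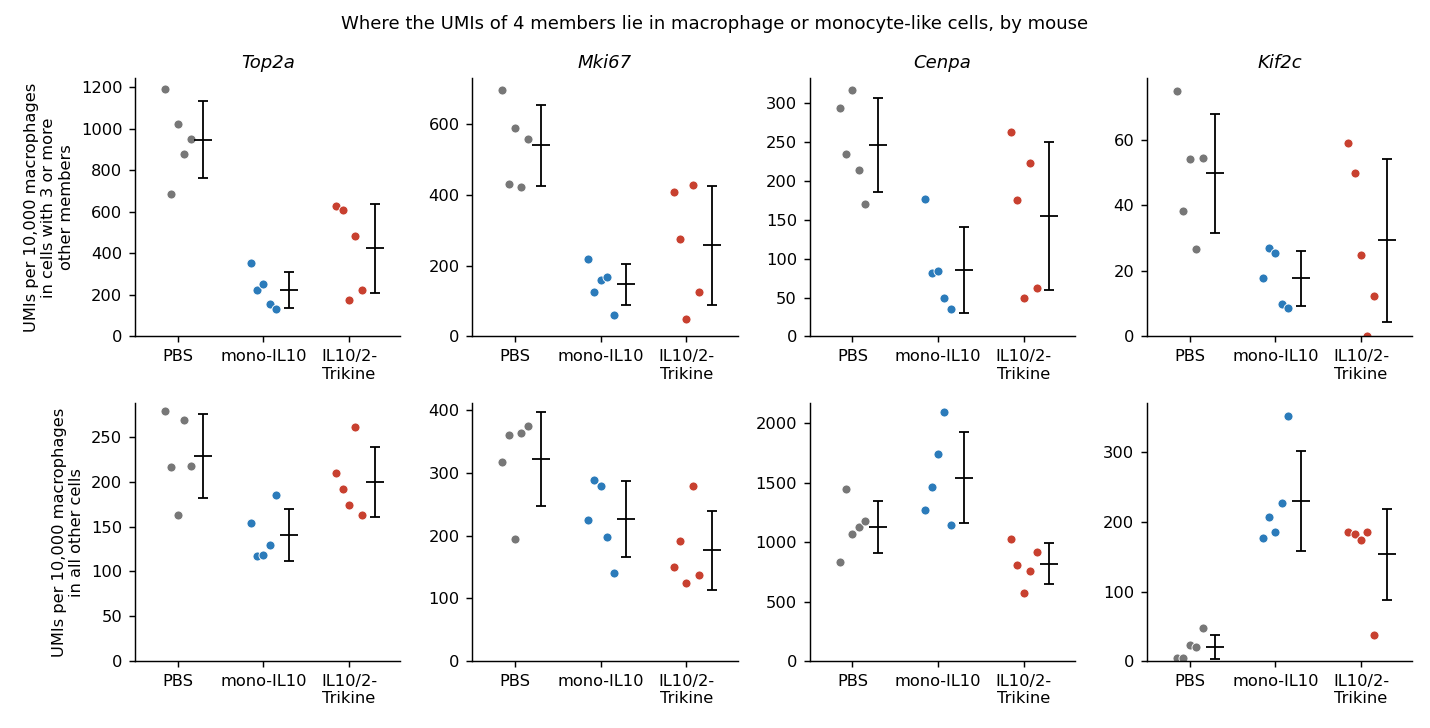
UMIs per 10,000 macrophage or monocyte-like cells (y axis, its own scale in each panel) of Top2a, Mki67, Kif2c and Cenpa, in cells with at least 3 other members and in all other cells, by treatment (x axis). Points are mice and bars the mean ± SD. Kif2c averages 20.2 in PBS and 230.5 in mono-IL10 in the other cells, and Top2a 946 and 225 in cells with 3 other members.

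The difference between IL10/2-Trikine and PBS macrophages depended on which cells were kept. IL10/2-Trikine macrophages were the shallowest, with a median of 2807 UMIs against 5002 in PBS and 6163 in mono-IL10. With at least 2000 genes per cell in place of 1000, 52.6% of PBS, 64.9% of mono-IL10 and 14.4% of IL10/2-Trikine macrophages stayed. The summed level was then 12.55, 8.93, 10.84, 8.97 and 11.01 in PBS mice and 13.63, 14.26, 10.67, 11.31 and 7.25 in IL10/2-Trikine mice, so the groups overlapped and the log2 ratio turned to 0.13. IL10/2-Trikine mouse 3 had 25 such cells. In that setting 2 members were called against PBS, 1 in each direction, while 5.17% of all genes were called as higher and 5.56% as lower, and 19 of 38 estimates had changed sign, 5 of them of members called with 1000 genes. Next the deeper libraries were drawn down so that medians of 9224 UMIs (PBS) and 11730 (mono-IL10) matched 6316 (IL10/2-Trikine). These are not the medians over all barcodes given above. The 1000-gene filter then gave 24 calls, 23 of them lower (8.93% of all genes were lower), and the 2000-gene filter 3 of 37 tested, all lower (4.28% of all genes). Estimates below 0 were 37 of 38 and 32 of 37, with member medians of -0.72 and -0.36. Drawing down did not bring macrophages to one depth: those with 1000 genes then had medians of 3712, 3648 and 2807 UMIs in PBS, mono-IL10 and IL10/2-Trikine, and 27.6%, 22.8% and 14.4% passed 2000 genes. The fall under mono-IL10 held in these 3 settings, with 36, 35 and 33 members lower, where 12.8%, 12% and 8.12% of all genes were lower. With each cell thinned to 1500 UMIs there were 14 calls among 30 members tested under IL10/2-Trikine against PBS, 13 of them lower, where 7.13% of all genes were lower. Against mono-IL10, the 2000-gene filter gave 36 calls for IL10/2-Trikine in place of 9, 35 of them higher where 7.91% of all genes were higher, and a log2 ratio of the summed level of 1.33 in place of 0.29. With library medians matched it gave 18 calls, 17 of them higher where 3.53% of all genes were higher. Clusters also differed: the one led by Cx3cr1 and Hpgds held 1612 PBS, 193 mono-IL10 and 76 IL10/2-Trikine cells, and the one led by Tmem26, Cd163 and Folr2 held 123, 1415 and 368. The one led by Ppbp, Pf4 and Arg1 held 474, 747 and 1284. The part of depth and of cluster make-up in the fall was not tested further. Summed T cell markers in macrophages were at 0.22 to 0.37, 0.13 to 0.35 and 0.51 to 0.77 per 10,000 UMIs in PBS, mono-IL10 and IL10/2-Trikine mice, and NK markers at 0.21 to 0.40, 0.09 to 0.27 and 0.37 to 0.67. Tumor epithelial markers were at 0.53 to 0.77, 0.53 to 0.87 and 0.79 to 1.25 in the same groups. The part of transcripts from other cells in the macrophage counts was not tested.

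**Figure D5:**
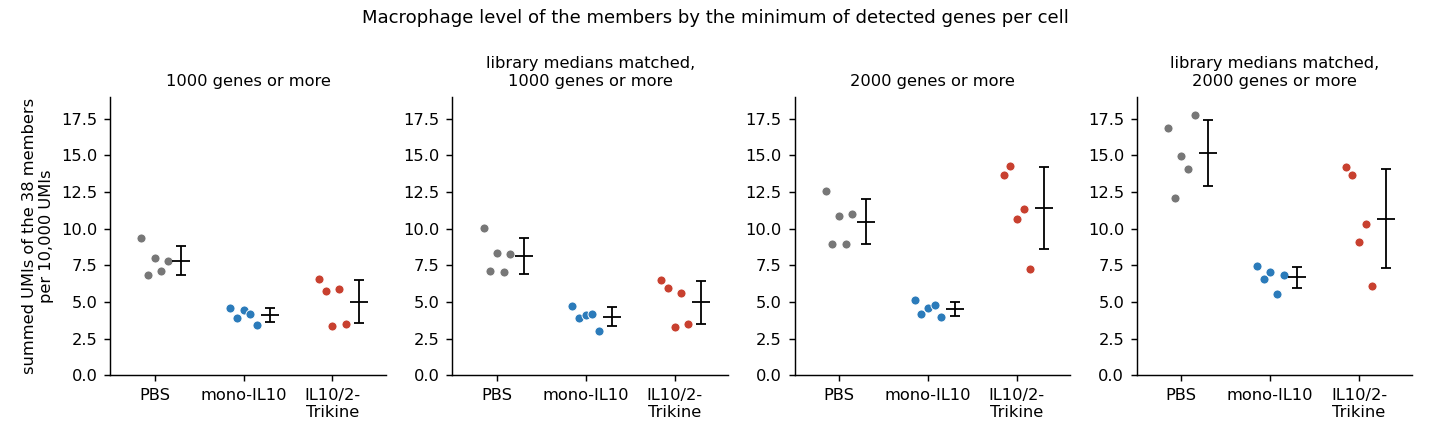
Summed level of the 38 members in macrophage or monocyte-like cells in UMIs per 10,000 UMIs (y axis, one scale) by treatment (x axis), under filters of 1000 and 2000 genes per cell, with and without the median UMIs of the libraries matched. Points are mice and bars the mean ± SD. PBS mice stay above mono-IL10 mice in each panel, whereas PBS and IL10/2-Trikine mice overlap in both panels with the 2000-gene filter.

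In NK cells only 4 members, Smc4, Cenpa, Top2a and Cenpw, passed the filter on low counts, and the other 34 were too sparse to test. The filter asked for 82.0 CPM, which is 10 UMIs in the median library, in at least 4 mice of any group. Top2a reached this in 4 IL10/2-Trikine mice, 1 PBS mouse and no mono-IL10 mouse and Cenpw in 4, 2 and 0, so both were tested through the group in which they were high, and their calls are no support for a rise among members. In IL10/2-Trikine against PBS 1 member rose and none fell, while 4.42% of 2355 genes were called, 2.46% as higher and 1.95% as lower. Top2a was at 0, 31.2, 16.3, 29.2 and 149 CPM in the PBS mice, 48.8, 41.1, 85.02 and 49.2 in mono-IL10 mice 1, 2, 4 and 5 and 142, 182, 280.2, 95.2 and 182 in the IL10/2-Trikine mice. It was higher in all IL10/2-Trikine mice than in any mono-IL10 mouse, and PBS mouse 5 alone reached into the IL10/2-Trikine range. Top2a rose against PBS (log2 fold change 2.10, SE 0.46, adjusted p = 0.00903; edgeR quasi-likelihood test, Benjamini-Hochberg adjustment over all genes tested) and against mono-IL10 (edgeR, log2 fold change 1.58, SE 0.34, adjusted p = 0.013). In a fit over all genes with no filter on low counts, Top2a was called as well (edgeR, log2 fold change 2.21, SE 0.40, adjusted p = 1.95e-05 against PBS and 1.49, SE 0.30, adjusted p = 4.03e-04 against mono-IL10). DESeq2 gave an adjusted p to 1 member in either comparison, and that was not Top2a. With NK-like cells of the Cycling_T cluster counted as NK cells, edgeR called 0 of 13 members against PBS, with 4 at an unadjusted p under 0.05, and 7 against mono-IL10. Over all genes 3.45% and 5.96% were called there. The member median against PBS was 0.74 on the log2 scale, with 11 of 13 estimates above 0.

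Against mono-IL10, 2 members rose, while 2.38% of all genes were called, 0.934% as higher and 1.44% as lower. Both calls were lost without mono-IL10 mouse 1. The other was Cenpw, a kinetochore protein, at 201, 114, 81.5, 48.7 and 49.6 in PBS, 48.8, 46.97, 48.6 and 27.3 in mono-IL10 and 71.1, 117, 123, 107 and 124 in IL10/2-Trikine mice. IL10/2-Trikine mice lay above all mono-IL10 mice but among the PBS mice (edgeR, log2 fold change 1.32, SE 0.33, adjusted p = 0.0305 against mono-IL10 and log2 fold change 0.32, SE 0.35, adjusted p = 0.698 against PBS). With no filter on low counts its call was lost (edgeR, log2 fold change 1.24, adjusted p = 0.0521). Cenpa, at 134, 208, 130.5, 127 and 124 CPM in PBS, then 150.1, 70.5, 194 and 76.5 in mono-IL10 and 56.9, 130.03, 105, 71.4 and 91.1 in IL10/2-Trikine mice, overlapped and passed no threshold against PBS (edgeR, log2 fold change -0.65, SE 0.35, adjusted p = 0.332). Smc4, at 134, 156, 48.9, 127 and 297 CPM in PBS, then 131, 205, 162 and 153 in mono-IL10 and 242, 156, 350.2, 179 and 143 in IL10/2-Trikine mice, also overlapped (edgeR, log2 fold change 0.44, SE 0.32, adjusted p = 0.515). For mono-IL10 against PBS edgeR called 0 of 4, with 1 at an unadjusted p under 0.05, DESeq2 gave no member an adjusted p, and 0.297% of all genes were called, 0.212% as higher and 0.0849% as lower.

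The untested members can be read as UMIs. All NK cells together held 398280 UMIs under PBS, 1080532 under mono-IL10 and 619943 under IL10/2-Trikine, of which 201, 596 and 735 were of members. At 0 were 21 members under PBS, 3 under mono-IL10 and 0 under IL10/2-Trikine. A count of 0 over the PBS group allows up to 7.53 CPM (3 counts, counting error only). Single PBS mice had 10 to 31 NK cells, so a 0 in 1 mouse allows more than this group bound. Mki67 had 0, 0, 6, 0 and 0 UMIs in the PBS mice, 4, 4, 24 and 7 in mono-IL10 mice 1, 2, 4 and 5 and 7, 12, 13, 7 and 14 in the IL10/2-Trikine mice. It was found in every IL10/2-Trikine mouse and in 1 of 5 PBS mice. Ube2c had no UMI in PBS mice, 2, 2, 2 and 1 in mono-IL10 and 6, 14, 3, 2 and 7 in IL10/2-Trikine mice, and Birc5 had none in PBS, 1, 1, 4 and 0 in mono-IL10 and 3, 9, 2, 1 and 6 in IL10/2-Trikine mice. Both were thus found in all IL10/2-Trikine mice and no PBS mouse. Cdk1 had 0, 1, 2, 0 and 0 UMIs in PBS, then 0, 1, 4 and 2 in mono-IL10 and 1, 5, 1, 2 and 4 in IL10/2-Trikine mice, and Ccnb1 had none in PBS or mono-IL10 and 1, 2, 0, 0 and 1 in IL10/2-Trikine mice, too few to order.

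Within the annotation, cells with 3 or more members were 63.3% of 30 Cycling_NK cells in IL10/2-Trikine (95% exact interval 43.9 to 80.1, counting error only), 1 of 3 in PBS and 1 of 9 in mono-IL10. They were 5.29% of 189 cells of the NK cluster in IL10/2-Trikine (2.57 to 9.51), 3.12% of 96 in PBS and 1.11% of 180 in mono-IL10. Cycling clusters are defined by genes of this kind, so this is a description. Populations and clusters were thinned in separate draws and the counts differ between them: the NK population as a whole had 8 such cells of 189 in mono-IL10 and 33 of 219 in IL10/2-Trikine, against 3 and 29 over its clusters. In 124 NK cell-like IL10/2-Trikine cells without an annotation the share was 37.9% (29.3 to 47.1), against 4% of 25 in PBS and 15.4% of 39 in mono-IL10. Neutrophil-like cells had 2.16% under PBS, 3.52% under mono-IL10 and 0 of 30 under IL10/2-Trikine (exact interval up to 11.6%). Their median depths were 2910, 2877 and 2236 UMIs against 3244, 5275 and 2561 in NK cells, and all shares are after thinning. The NK markers in NK cells were at 16.2 to 33.7, 35.6 to 42.6 and 62.9 to 115 per 10,000 UMIs in the 3 groups, and T cell markers at 2.65 to 7.05, 3.57 to 6.26 and 3.89 to 5.70. The part of this marker difference in the member difference was not tested.

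In T cells 22 members passed the filter on low counts. The 16 not tested included all 5 mitotic kinases and checkpoint genes, with Ccnb1, Cdc20 and Kif2c. IL10/2-Trikine against PBS gave 7 higher and 0 lower, while 8.97% of 3189 genes were called, 5.14% as higher and 3.83% as lower, and the member median was 0.70 on the log2 scale. Against mono-IL10 it gave 7 higher and 0 lower, while 12.3% of all genes were called, 6.05% as higher and 6.21% as lower. For mono-IL10 against PBS edgeR called 0 of 22, with 1 at an unadjusted p under 0.05, DESeq2 called 0 of the 3 to which it gave an adjusted p, and 1.72% of all genes were called, 1.19% as higher and 0.533% as lower. Of the 22, 7 would not have passed without the IL10/2-Trikine mice, and these gave 3 of the 7 calls in each comparison, Cenpe, Hmmr and Racgap1 against PBS and Cdk1, Cenpe and Racgap1 against mono-IL10. The other 15 gave 4 calls against PBS and 4 against mono-IL10. Calls of the 7 are no support for a rise. With no filter on low counts 6 members were called against PBS and 5 against mono-IL10, where 0.724% and 0.913% of all genes were higher. Ccna2 (edgeR, adjusted p = 0.0547) and Hmmr (edgeR, 0.142) were then lost against PBS, and Birc5 was gained (edgeR, 0.0324). Racgap1 (edgeR, adjusted p = 0.358) and Cdk1 (edgeR, 0.133) were lost against mono-IL10. Leaving out single mice moved the 7 calls against PBS to between 2, without PBS mouse 1, and 9, without PBS mouse 5.

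Racgap1, which anchors the central spindle for cytokinesis, was at 63.96, 63.5, 45.7, 38.2 and 21.6 CPM in the PBS mice, 84.8, 106, 92.2, 62.3 and 106 in the mono-IL10 mice and 118, 157, 122, 174 and 137 in the IL10/2-Trikine mice. Every IL10/2-Trikine mouse was above every other mouse (edgeR, log2 fold change 1.56, SE 0.28, adjusted p = 7.94e-04 against PBS and log2 fold change 0.69, SE 0.23, adjusted p = 0.0484 against mono-IL10). Kif11 was at 56.9, 127, 111, 106 and 129.8 CPM in the PBS mice, 83.02, 158, 41.9, 107 and 93.5 in the mono-IL10 mice and 209, 224, 284, 324 and 147 in the IL10/2-Trikine mice. IL10/2-Trikine mice were above all PBS mice, and mono-IL10 mouse 2 reached above IL10/2-Trikine mouse 5 (edgeR, log2 fold change 1.07, SE 0.27, adjusted p = 0.0148 and log2 fold change 1.12, SE 0.25, adjusted p = 0.00348). Cenpe, the kinetochore motor, was at 21.3, 106, 45.7, 38.2 and 32.5 CPM in the PBS mice, 59.6, 95.7, 25.2, 64.2 and 50.99 in the mono-IL10 mice and 54.4, 157, 264, 224 and 78.2 in the IL10/2-Trikine mice. IL10/2-Trikine mice 1 and 5 lay in the PBS range and the others above it (edgeR, log2 fold change 1.46, SE 0.42, adjusted p = 0.0281). The other calls against PBS were Top2a, Nusap1, Ccna2 and Hmmr. Racgap1, Cenpe and Hmmr had passed the filter on low counts only with the IL10/2-Trikine mice.

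Top2a in T cells was at 263, 536, 418, 327 and 433 CPM in the PBS mice, 356, 498, 226, 315 and 429 in the mono-IL10 mice and 589, 571, 669.98, 871 and 567 in the IL10/2-Trikine mice. The lowest IL10/2-Trikine mouse, at 567, was above the highest PBS mouse, at 536 (edgeR, log2 fold change 0.68, SE 0.20, adjusted p = 0.0302 and, against mono-IL10, log2 fold change 0.76, SE 0.19, adjusted p = 0.00762). Mki67 was at 149, 367, 274, 323 and 368 CPM in the PBS mice, 269, 396, 184, 224 and 369.7 in the mono-IL10 mice and 462, 453, 751, 299 and 274 in the IL10/2-Trikine mice. IL10/2-Trikine mice 4 and 5 lay among the others and Mki67 passed no threshold (edgeR, log2 fold change 0.57, SE 0.25, adjusted p = 0.166). Cdk1 was at 42.6, 91.8, 45.7, 42.5 and 108 CPM in the PBS mice, 73.99, 72.6, 67.1, 42.8 and 59.5 in the mono-IL10 mice and 109, 101, 183, 174 and 97.8 in the IL10/2-Trikine mice, and passed against mono-IL10 (edgeR, log2 fold change 0.92, SE 0.28, adjusted p = 0.0304) but not against PBS (edgeR, log2 fold change 0.95, SE 0.32, adjusted p = 0.0596). IL10/2-Trikine mice 2 and 5 lay below PBS mouse 5 in Cdk1.

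Birc5 in T cells was at 92.4, 219, 118, 76.5 and 173 CPM in the PBS mice, 180.5, 188, 83.8, 109 and 234 in the mono-IL10 mice and 272, 279.7, 305, 224 and 127 in the IL10/2-Trikine mice. IL10/2-Trikine mouse 5 lay in the PBS range and the other 4 above it (edgeR, log2 fold change 0.91, SE 0.31, adjusted p = 0.0643). Ube2c was at 56.9, 438, 222, 217 and 270.4 CPM in the PBS mice, 278, 346, 41.9, 113 and 251 in the mono-IL10 mice and 272, 263, 142, 249 and 147 in the IL10/2-Trikine mice. Its 3 groups overlapped (edgeR, log2 fold change -0.09, SE 0.41, adjusted p = 0.939). Ccnb1 was not tested, with 4, 8, 12, 5 and 5 UMIs in PBS, 32, 19, 1, 5 and 2 in mono-IL10 and 8, 9, 2, 3 and 4 in IL10/2-Trikine mice. By role, 3 of 5 tested spindle genes rose against PBS, and 1 each of 4 centromere and kinetochore genes, 3 chromosome genes, 5 cyclins and partners and 2 cytokinesis genes, but none of 2 passenger complex genes or of 1 gene of the anaphase promoting complex group. Over all genes 5.14% rose. Hmmr, Cenpe and Racgap1 had passed the filter on low counts only with the IL10/2-Trikine mice. Without them the centromere and cytokinesis groups have no call.

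The calls in T cells were lost when NK-like cells of the Cycling_T cluster were counted as NK cells. The NK marker sum also differed by treatment within annotated NK cells, so the NK-like cells need not all be NK cells. Of its cells with a mouse, 12 under PBS, 14 under mono-IL10 and 59 under IL10/2-Trikine had more NK than T cell marker UMIs, and 31, 85 and 35 did not. Both kinds carried members: 3 or more were found in 98.3% of the former and 85.7% of the latter in IL10/2-Trikine. With those 85 cells moved to the NK cells, a level read after seeing the data, the T cell level was 13.6, 29.8, 18.8, 21.0 and 17.6 in PBS mice and 26.7, 32.9, 32.1, 36.7 and 20.7 in IL10/2-Trikine mice, which overlap. The members tested fell from 22 to 16, of which edgeR called 0 against PBS, with 1 at an unadjusted p under 0.05, and 0 against mono-IL10, with 0 at that level, and the cause was not tested. The NK level was then 10.6, 7.86, 14.2, 8.08 and 13.7 in PBS mice, 6.67, 7, 4.67, 14 and 5.79 in mono-IL10 mice and 33.3, 24.4, 32, 22.5 and 14 in IL10/2-Trikine mice. Of 13 members tested in those NK cells, 0 were called against PBS and 7 rose against mono-IL10, where 1.54% and 2.74% of all genes were higher. Of the 85 moved cells 80 had 3 or more members, so these NK calls are no support for a rise. Summed NK markers in the T cell group were at 6.91 to 10.9, 11.3 to 15.9 and 21.2 to 33.6 per 10,000 UMIs in the 3 groups, and T cell markers at 26.9 to 33.8, 39.1 to 42.6 and 18.4 to 25.5. In T cell clusters other than the cycling ones, 5.67% of 194 PBS, 2.64% of 341 mono-IL10 and 5.26% of 76 IL10/2-Trikine cells had 3 or more members.

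Whether the lymphocyte change differed from the macrophage change was tested as an interaction of population and treatment, with the mouse as a block, since both sums come from the same animals. Members are read here only where they passed the filter on low counts in both populations alone, a limit set after seeing the data. In NK cells these were 4, Smc4, Cenpa, Top2a and Cenpw, of which Top2a and Cenpw had passed through the IL10/2-Trikine mice. For NK cells against macrophages under IL10/2-Trikine versus PBS, Top2a and Smc4 moved more upward in NK cells, with differences of log2 changes of 3.27, SE 0.42, adjusted p = 4.80e-11 for Top2a and 1.10, SE 0.31, adjusted p = 0.0316 for Smc4 (edgeR quasi-likelihood, Benjamini-Hochberg). Cenpw was at 0.62, SE 0.42, and Cenpa at -0.03, SE 0.34. Of 2327 genes that passed in both, 4.08% were called, 2.54% as higher and 1.55% as lower in NK cells. Without the replicate block 1 of the 4 was called. In the interaction fit with no filter on low counts Top2a was called (edgeR, 3.31, SE 0.41, adjusted p = 1.46e-12) and Smc4 missed the threshold (edgeR, 1.15, SE 0.31, adjusted p = 0.0502). For mono-IL10 versus PBS the same 2 genes passed, Top2a at 2.22, SE 0.47, adjusted p = 8.95e-04 and Smc4 at 1.07, SE 0.30, adjusted p = 0.0342 (edgeR), while 4.43% of those genes were called, 3.7% as higher and 0.731% as lower, and edgeR called 0 without the block, with 2 at an unadjusted p under 0.05. With no filter on low counts Top2a was called (edgeR, 2.20, SE 0.47, adjusted p = 0.00132) and Smc4 was not (edgeR, 1.06, SE 0.30, adjusted p = 0.0899). In NK cells alone neither gene was called for mono-IL10 against PBS, nor Smc4 for IL10/2-Trikine against PBS. For IL10/2-Trikine versus mono-IL10 edgeR called 0 of 4, with 1 at an unadjusted p under 0.05, while 3.05% were called, 0.301% as higher and 2.75% as lower.

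For T cells against macrophages under IL10/2-Trikine versus PBS, 13 of the 22 members that passed in both moved more upward in T cells and 0 the other way, while 5.99% of 3173 genes were called, 3.03% as higher and 2.96% as lower in T cells. Of the 13, 4 were members that had passed only with the IL10/2-Trikine mice, Cdk1, Cenpe, Hmmr and Racgap1, and the other 15 members gave 9. Without the replicate block the count was 9, and in a fit with no filter on low counts it was 14 of these 22. The differences were 1.68, SE 0.27, adjusted p = 5.68e-05 for Top2a, 2.18, SE 0.38, adjusted p = 2.08e-04 for Racgap1 and 1.46, SE 0.31, adjusted p = 0.00326 for Mki67 (edgeR, log2 scale). Under mono-IL10 versus PBS, 17 of 22 moved more upward in T cells and 0 the other way, while 5.45% of those genes were called, 3.66% as higher and 1.8% as lower, and 11 calls were left without the block. Of the 17, 12 were among the 15 members that passed without the IL10/2-Trikine mice. In T cells alone 0 of 22 were called for mono-IL10 against PBS, with a member median of -0.05. The macrophage median was -1.21, so these differences do not show a T cell rise. In IL10/2-Trikine versus mono-IL10 edgeR called 0 of 22, with 0 at an unadjusted p under 0.05, while 6.74% were called, 1.32% as higher and 5.42% as lower. These T cell sums include the NK-like cells of the Cycling_T cluster.

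In tumor epithelial-like cells changes were small. All 38 members were tested. Under IL10/2-Trikine against PBS 0 rose and 7 fell, while 21.6% of 15057 genes were called, 10.3% as higher and 11.3% as lower, and the member median was -0.12. Against mono-IL10 0 rose and 10 fell, while 34.9% of all genes were called, 17.8% as higher and 17% as lower. For mono-IL10 against PBS edgeR called 0 of 38, with 3 at an unadjusted p under 0.05 and 0 by DESeq2, while 10% of all genes were called, 5.27% as higher and 4.78% as lower. The 7 members that fell spanned -0.35 to -0.20 on the log2 scale. Depth and tumor markers moved with these falls: the tumor cells had a median of 25795 UMIs under PBS, 35546.5 under mono-IL10 and 10021 under IL10/2-Trikine, and summed epithelial markers of 46.4 to 60.5, 51.2 to 58.1 and 40.8 to 44.3 per 10,000 UMIs. The part of the markers was not tested, and that of depth only by thinning. With each cell thinned to 1500 UMIs edgeR called 0 against PBS, with 5 at an unadjusted p under 0.05, and 2 against mono-IL10. Over all genes 6.41% and 12.4% were called there. Leaving out single mice gave 3 calls against PBS without IL10/2-Trikine mouse 5 and 11 without IL10/2-Trikine mouse 3.

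Cks2 was at 207, 218, 199.9, 218 and 191 CPM in the PBS mice, 232, 226, 230.02, 230.5 and 191 in the mono-IL10 mice and 173, 188, 183, 174 and 170 in the IL10/2-Trikine mice. Each IL10/2-Trikine mouse was below all other mice (edgeR, log2 fold change -0.22, SE 0.05, adjusted p = 0.00823). Its relative Cks1b, at 309, 328, 346, 314 and 313 CPM in the PBS mice, 362, 339, 352, 305 and 306 in the mono-IL10 mice and 246, 299, 294, 285 and 250.2 in the IL10/2-Trikine mice, was arranged the same way (edgeR, log2 fold change -0.23, SE 0.06, adjusted p = 0.0158). Cenpe was at 60.1, 71.1, 73.4, 80.9 and 68.7 CPM in the PBS mice, 71.2, 78.1, 82.9, 66.7 and 71.95 in the mono-IL10 mice and 50.5, 65.1, 61.2, 53.9 and 50.4 in the IL10/2-Trikine mice. IL10/2-Trikine mice lay below all mono-IL10 mice, and mouse 2 and mouse 3 overlapped PBS (edgeR, log2 fold change -0.33, SE 0.08, adjusted p = 0.0109). Mki67 was at 80.6, 81.97, 92.96, 98.4 and 89.6 CPM in the PBS mice, 94.02, 84.9, 95.4, 81.2 and 80.2 in the mono-IL10 mice and 61.4, 78.98, 85.5, 71.4 and 56.8 in the IL10/2-Trikine mice. Its IL10/2-Trikine mice 1, 2, 4 and 5 were below all PBS mice (edgeR, log2 fold change -0.32, SE 0.09, adjusted p = 0.0231).

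Top2a in tumor cells was at 188, 192, 222, 239 and 208 CPM in the PBS mice, 245, 200.2, 215, 184 and 193 in the mono-IL10 mice and 164, 221, 218, 183 and 157 in the IL10/2-Trikine mice. The groups overlapped and the test missed the threshold (edgeR, log2 fold change -0.15, SE 0.10, adjusted p = 0.311). Cdk1, at 73.6, 75.7, 79.1, 88.02 and 78.6 CPM in the PBS mice, 95.6, 82.1, 95.1, 73.9 and 71.7 in the mono-IL10 mice and 69.8, 81.5, 80.4, 66.98 and 59.3 in the IL10/2-Trikine mice, overlapped too (edgeR, log2 fold change -0.14, SE 0.09, adjusted p = 0.319). Ccnb1, at 33.7, 38.8, 38.1, 43.9 and 37.9 CPM in the PBS mice, 41.5, 37.3, 41.3, 30.97 and 33.2 in the mono-IL10 mice and 36.1, 42.6, 44.1, 34.1 and 35.1 in the IL10/2-Trikine mice, had a difference of 0.00 with an SE of 0.09. Overlap also held for Birc5, at 117, 127, 145, 143 and 127 CPM in the PBS mice, 158, 143, 145, 118 and 122 in the mono-IL10 mice and 102, 134, 141, 110.3 and 97.9 in the IL10/2-Trikine mice (edgeR, log2 fold change -0.17, SE 0.10, adjusted p = 0.263). Ube2c, at 176, 199, 225, 217 and 201 CPM in the PBS mice, 261, 254, 279, 203 and 212 in the mono-IL10 mice and 174, 244, 243, 192 and 179 in the IL10/2-Trikine mice, overlapped as well (edgeR, log2 fold change 0.02, SE 0.11, adjusted p = 0.925). The other calls were Smc4, Bub1 and Kif20b, so the calls fell in the chromosome, cyclin, kinase, kinetochore and spindle groups and in none of the others. Macrophage markers in this class were at 2.61 to 5.13, 1.06 to 2.19 and 2.06 to 8.48 per 10,000 UMIs in the 3 groups.

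Other genes of the cell cycle were read from lists. Of 74 further mitotic genes, 17 of the 72 tested in macrophages fell under IL10/2-Trikine and 1 rose, where 8.88% of all genes were called as lower and 9.17% as higher, and 61 fell and 2 rose under mono-IL10, where 13% were lower and 13.4% higher. They included Stmn1, which destabilizes microtubules (edgeR, log2 fold change -0.96, SE 0.18, adjusted p = 0.00111 under IL10/2-Trikine), the chromatin protein Hmgb2 (edgeR, log2 fold change -0.43, SE 0.09, adjusted p = 0.00164), the kinesin Kif15 (edgeR, log2 fold change -0.94, SE 0.20, adjusted p = 0.00235) and the kinase Melk (edgeR, log2 fold change -1.05, SE 0.26, adjusted p = 0.00763). In T cells 7 of 18 rose against PBS and 10 against mono-IL10, where 5.14% and 6.05% of all genes rose. In NK cells 3 of 6 rose against PBS, where 2.46% of all genes rose, namely Hmgb2 (edgeR, log2 fold change 1.18, SE 0.22, adjusted p = 0.0034), Stmn1 (edgeR, log2 fold change 2.01, SE 0.49, adjusted p = 0.0172) and the condensin subunit Smc2 (edgeR, log2 fold change 1.73, SE 0.49, adjusted p = 0.0427). The next, Ube2s, was at a log2 change of 0.44 (SE 0.40). Which of these genes passed the filter on low counts only through the IL10/2-Trikine mice was not examined. Their calls in NK and T cells are therefore no support for a rise, and the T cell sums include the NK-like cells of the Cycling_T cluster. In tumor cells 5 of 74 fell and 2 rose against PBS, a smaller share than the 21.6% called over all genes.

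Among 35 DNA replication genes, which act in S phase before mitosis, 11 fell and 0 rose in macrophages under IL10/2-Trikine, and 26 fell under mono-IL10, where 8.88% and 13% of all genes fell. The polymerase subunit Pola1 (edgeR, log2 fold change -0.71, SE 0.14, adjusted p = 0.00112), the ligase Lig1 (edgeR, log2 fold change -0.71, SE 0.14, adjusted p = 0.00174), the sliding clamp Pcna (edgeR, log2 fold change -0.35, SE 0.09, adjusted p = 0.00816) and thymidylate synthase Tyms (edgeR, log2 fold change -0.80, SE 0.22, adjusted p = 0.0159) led them. In T cells 13 of 21 rose against PBS, where 5.14% of all genes did, and 11 of 35 fell in tumor cells, where 11.3% did. How the 21 passed the filter on low counts was not examined either, so these T cell calls are no support for a rise. In NK cells edgeR called 0 of 6, and Dut, Pcna, Slbp and Lig1 were at log2 changes of 0.70, 0.50, -0.53 and 0.66.

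Of 16 transcription factors of the mitotic program, 1 rose and 2 fell in macrophages under IL10/2-Trikine, a share near the 18.1% called over all genes. Rbbp4, a MuvB subunit with other chromatin roles, rose (edgeR, log2 fold change 0.24, SE 0.06, adjusted p = 0.00533) and the repressor E2f7 (edgeR, log2 fold change -1.23, SE 0.35, adjusted p = 0.0182) and the activator E2f3 (edgeR, log2 fold change -0.25, SE 0.09, adjusted p = 0.0487) fell, while Lin52 missed the threshold (edgeR, log2 fold change -0.37, SE 0.13, adjusted p = 0.0509). Under mono-IL10, where 26.4% of all genes were called and 13% fell, 9 fell and 0 rose, Rbbp4 among them (edgeR, log2 fold change -0.20, SE 0.05, adjusted p = 0.0105). Only Rbbp4 and Lin54 were tested in NK cells, at log2 changes of 0.51 (SE 0.20) and -0.02, with 0 called by edgeR.

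Of 20 brakes of the cell cycle, 18 were tested in macrophages, and under IL10/2-Trikine 1 rose and 2 fell, a share near the 18.1% called over all genes. Cdkn2a, the locus of p16 and p19, rose (edgeR, log2 fold change 0.89, SE 0.19, adjusted p = 0.00284), and the antiproliferative gene Btg2 (edgeR, log2 fold change -0.29, SE 0.08, adjusted p = 0.0128) and the Cdk1-inhibiting kinase Pkmyt1 (edgeR, log2 fold change -0.65, SE 0.21, adjusted p = 0.0421) fell. Under mono-IL10, 2 of the 18 rose and 3 fell, a share near the 26.4% called over all genes. Cdkn1a, the inhibitor p21, missed the threshold under IL10/2-Trikine (edgeR, log2 fold change -0.22, SE 0.08, adjusted p = 0.0609) and rose under mono-IL10 (edgeR, log2 fold change 0.32, SE 0.08, adjusted p = 0.00551). In NK cells 1 of 5 was called, Btg2, which fell (edgeR, log2 fold change -0.73, SE 0.19, adjusted p = 0.0293), while Cdkn1a, Btg1 and Cdkn1b were at log2 changes of -0.73, -0.36 and -0.32. Against PBS, 1 of 7 was called in T cells, where 8.97% of all genes were, and 5 of 19 in tumor cells, where 21.6% were.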

How the data were processed

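Libraries of CD45-isolated tumor cells from 3 treatments, with 5 hashtagged mice each, were made on a 10x GEM-X 5′ kit. Per the labels, the authors ran Cell Ranger 9.0.1 on GRCm39, with Seurat 5.1.0 and DESeq2 1.46.0 named in the submitters' processing notes, and deposited raw UMI counts per gene and hashtag and an annotation of lymphocytes. In that annotation, 7858 cells belong to another group and were not used. Antibody and gene counts were read as deposited.

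Mice were called from the hashtags with HTODemux (Seurat 5.3.0), and hashtag doublets and negatives were left out, which misses doublets within a mouse. Cells outside the annotation needed at least 1000 genes and at most 10% mitochondrial UMIs. In all, 92485 cells were clustered into 60 clusters (k-means, 40 components, 2000 variable genes, 234 cell cycle genes dropped, scikit-learn 1.9.0) and named from marker lists. Group names may differ from those of the study. Levels and shares used cells thinned to 1500 UMIs, and the 9 shallower macrophages and 37 shallower tumor cells were left out. Mice needed 10 cells of a population.

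UMI counts were summed per mouse and population, 3 groups in 1 fit, and tested with edgeR 4.0.16 (filterByExpr, TMM, quasi-likelihood test, Benjamini-Hochberg over all genes tested, threshold 0.05). The difference between populations was an interaction with the mouse as a block, since both sums come from the same animal by its hashtag. Values in CPM are UMIs scaled to the TMM library size. Shares of cells were compared by exact two-sided permutation of the mice. The test scripts were run on simulated data. P-values measure the spread between mice within libraries. Members, lists and tests were chosen with earlier results of these data known. Values of every mouse are given for Mki67, Top2a, Cdk1, Ccnb1, Birc5 and Ube2c and for the 3 members of smallest adjusted p in IL10/2-Trikine against PBS in each population, other members by role, and of the other lists the 4 genes of smallest adjusted p in NK cells and in macrophages. Exceptions are named where they occur. Alternatives were DESeq2 1.42.0, RLE scaling, no count filter, thinning to 1500 or 3000 UMIs or none, clustering with cell cycle genes, other gene minimums, library median UMIs matched, and mice left out. Python 3.11.15 and R 4.3.3 were used.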

Additional observations from a re-analysis of the deposited data

Results flagged for a closer look

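Among 141 groups of 4 or 5 mice, 7 held a mouse whose gap to the nearest other mouse was large for the group's range, and chance marks about 1 group in 20. They were, in NK cells of PBS mice, the Mki67 share of mouse 3, 10% where the other mice had none, Top2a in mouse 5 at 149 CPM and Cenpa in mouse 2 at 208. In T cells it was Cenpe in PBS mouse 2 at 106. In macrophage or monocyte-like cells, mono-IL10 mouse 1 was the highest of its group in the Top2a share, at 3.49%, and in Smc4, at 61.0 CPM. In tumor epithelial-like cells, Cks2 in mono-IL10 mouse 5 was the lowest of its group at 191.

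The treatment effect differed between populations by the interaction test for 14 of 27 members (NK cells against macrophages, IL10/2-Trikine against PBS), for 1 when IL10/2-Trikine was set against mono-IL10, and for 4 in mono-IL10 mice relative to PBS mice. Over all genes 1.63%, 1.08% and 1.54% were called in these comparisons. The NK counts are no support for a difference, since all but 4 of the 27 entered through their macrophage counts and were too sparse to test in NK cells, and 7 of the 14 had no UMI in PBS NK cells. Of the 4, Smc4, Cenpa, Top2a and Cenpw, 2, 0 and 2 were called, and without the replicate block 1, 0 and 0. Of these, Top2a and Cenpw had passed the filter on low counts through the IL10/2-Trikine mice, and with no filter 1, 0 and 1 were called. For T cells against macrophages the effect differed for 17 of 38 members (IL10/2-Trikine against PBS) and for 19 when mono-IL10 was set against PBS. Over all genes 2.61% and 2.58% were called in these fits, and of the 19 members 18 were higher and 1 lower. The counts were 13 and 17 of the 22 that could be tested in T cells alone, where 5.99% and 5.45% of genes were called. They were 9 and 12 of the 15 of these that passed the filter without the IL10/2-Trikine mice. Among NK cell-like cells that the study's annotation does not hold, 37.9% of IL10/2-Trikine cells had 3 or more members, against 4% in PBS.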

How the results depend on the processing

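Of 459 recomputed values of the main results, 361 kept their direction and their side of the threshold or stayed within the spread, 73 were weaker, 16 stronger, 8 moved and 1 reversed. Of 1784 values of shares and of the members followed singly, 1624 kept theirs, 104 were weaker, 55 stronger and 1 reversed. The cause was not tested where none is given.

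The 6 calls on Mki67 and Top2a shares became 12 without thinning and 0 with thinning to 3000 UMIs, which leaves out more cells. At 3000 UMIs both macrophage shares of mono-IL10 mice still lay wholly below those of PBS mice, while those of IL10/2-Trikine mice overlapped PBS mice. The T cell Top2a shares of IL10/2-Trikine mice 1, 2 and 5 lay above all PBS mice, but without mice 3 and 4 the smallest p possible was larger. The log2 ratio of the summed level in NK cells was 1.77 against PBS and 2.04 against mono-IL10 without the 3 members of most UMIs. In T cells thinned to 3000 UMIs it was 0.29 for IL10/2-Trikine against PBS and -0.67 for mono-IL10 against PBS. IL10/2-Trikine mice 3 and 4 had no T cell share at that depth, so these ratios need not rest on the same mice. In macrophages with at least 2000 genes the log2 ratio was 0.13 for IL10/2-Trikine against PBS (reversed from -0.64), 1.33 against mono-IL10 and -1.21 for mono-IL10 against PBS. The summed member level in macrophage or monocyte-like cells, mono-IL10 against PBS, had a log2 ratio of -1.19 without the 3 members of most UMIs and -1.18 with library medians matched and 2000 genes. For IL10/2-Trikine against PBS, the member median in that matched setting was -0.36, with 32 of 37 estimates below 0. With 2000 genes, Birc5 in IL10/2-Trikine macrophages reversed to 0.13 (edgeR, adjusted p = 0.809) among the members followed singly, and over all 38 members 19 estimates changed sign, 5 of them of called members.

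Calls against PBS and against mono-IL10 in NK cells were 8 and 4 with no count filter, where 0.516% and 0.113% of all genes were higher. They were 0 and 7 once NK-like cells of the Cycling_T cluster were moved, where 1.54% and 2.74% were higher. At 1500 UMIs per cell no member was tested in NK cells, and DESeq2 gave none of the members that edgeR called there an adjusted p. In T cells they were 4 and 4 with DESeq2, which gave 18 and 30 members an adjusted p, 3 and 3 thinned, and 0 and 0 with those cells moved. Over all genes 3.7% and 2.83% were higher with DESeq2, and 7.13% and 9.99% thinned. In macrophages, calls of IL10/2-Trikine against PBS were 14 thinned, 2 with 2000 genes and 3 with library medians matched and 2000 genes. Against mono-IL10 they were 36 and 18 in the last 2 settings. In tumor cells thinned to 1500 UMIs they were 0 against PBS and 2 against mono-IL10, where 6.41% and 12.4% of all genes were called.

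Without the replicate block, which pairs both populations of a mouse, the NK cell and macrophage interaction had 2, 0 and 0 calls (IL10/2-Trikine against PBS, IL10/2-Trikine against mono-IL10, mono-IL10 against PBS), 3, 0 and 0 when thinned, 2, 0 and 2 over members past the count filter in both populations, 1, 0 and 0 over these without the replicate block, and 1, 0 and 1 over these in the fit with no filter on low counts, in place of 14, 1 and 4. Over all genes of the NK fits, 0.847%, 0.689% and 0.768% were called without the block and 0.975%, 0.416% and 0.588% when thinned. The T cell and macrophage interaction had 9 (IL10/2-Trikine against PBS) and 12 (mono-IL10 against PBS) without the replicate block, 4 for mono-IL10 against PBS when thinned, and 9 and 11 without the block over members past the filter in both. Over all genes 2.65% and 2.5% were called without the block, 1.02% when thinned, and 6.15% and 5.23% in the last setting. Across treatments, no paired analysis was possible because each treatment was 1 library with mice of its own.

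Leaving out 1 mouse at a time gave, for IL10/2-Trikine against mono-IL10 in NK cells, 0 to 2 calls, with 0 without mono-IL10 mouse 1. In T cells it gave 2 to 9 against PBS, 3 to 11 against mono-IL10 (11 without mono-IL10 mouse 2) and 0 to 1 for mono-IL10 against PBS. T cell calls against PBS were 2 without PBS mouse 1, PBS mouse 4 or IL10/2-Trikine mouse 2. In macrophages it gave 8 to 26 against PBS, with 14 or fewer without PBS mouse 1, 3 or 5 or IL10/2-Trikine mouse 2, 3, 4 or 5, and 1 to 17 against mono-IL10 (1 without IL10/2-Trikine mouse 1, 4 without IL10/2-Trikine mouse 2, 15 without IL10/2-Trikine mouse 5, 17 without mono-IL10 mouse 1). In tumor cells it gave 3 to 11 against PBS, 7 to 18 against mono-IL10 and 0 to 1 for mono-IL10 against PBS, the extremes of the first without IL10/2-Trikine mouse 5 and mouse 3. The NK cell and macrophage interaction gave 0 to 6 for IL10/2-Trikine against mono-IL10 (0 without mono-IL10 mouse 1 or 5 or IL10/2-Trikine mouse 2 or 5, 6 without mono-IL10 mouse 4) and 0 to 7 for mono-IL10 against PBS (0 without mono-IL10 mouse 4, 7 without mono-IL10 mouse 1). The T cell and macrophage interaction gave 10 to 17 for IL10/2-Trikine against PBS, the lowest without PBS mouse 1, and 9 to 23 for mono-IL10 against PBS.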
